A study of Mus musculus with 2 samples.

Results

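The genes described here are 8 genes of monocyte traffic: the chemokines Ccl2, Ccl7, Ccl12 and Ccl8 of the monocyte chemoattractant protein group, the chemokines Ccl3 and Ccl4 of the macrophage inflammatory protein group, and the receptors Ccr2 and Ccr1. They were chosen by gene symbol, and all 8 were found among the 32285 genes listed for each library. The tumours were grafts of RM-1, a single mouse prostate cancer line, grown under the skin of wild-type C57BL/6 mice and taken 10 days post-treatment with vehicle or with RP-6306, an inhibitor of the PKMYT1 kinase. The design text names 2 tumour-bearing mice. Leukocytes carrying CD45 were sorted and then pooled with tumour cells at 3 to 1, so stromal cells without CD45 are under-represented and the shares of tumour cells and leukocytes were set by hand. There was 1 library per treatment. Every difference below is therefore between 2 libraries, no test between treatments was possible, and the intervals cover counting error only, not variation between mice.

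Chemokines are small secreted proteins that draw leukocytes along a gradient by binding receptors coupled to G proteins. CCL2, CCL7 and, in the mouse, CCL12 bind CCR2, the receptor with which inflammatory monocytes leave the bone marrow and enter inflamed or tumour tissue, where many of them become macrophages. CCL3 binds CCR1, which is found on monocytes, macrophages and neutrophils. In tumours, the cancer cells, macrophages and other leukocytes can all be sources of these ligands.

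After filtering, 16107 vehicle and 14938 RP-6306 cells remained, with 127617276 and 148206027 unique molecular identifiers (UMIs, counted molecules) and medians of 3113 and 2850 UMIs per cell. Cells were clustered without the 8 genes, and clusters were named from marker genes. The tumour-like class held 3193 and 3424 cells, the macrophage-like class 108 and 180, the monocyte-like class 297 and 183, and 2 clusters between those leukocyte classes, called intermediate, 77 and 128. The last 3 together are called macrophage and monocyte-like cells (482 and 491). A further 4262 and 2037 cells stayed unnamed. Of 12 markers fixed for the tumour line, 11 were detected in tumour-like cells of both libraries, with Krt5 at 0. In macrophage-like cells all 12 macrophage markers were detected, and their summed level was 5749 and 8729 CPM, the usual unit in which a gene's UMIs are scaled to the same total for every class and library. Detection alone does not separate the classes, as all 12 were also detected in tumour-like cells, at a sum of 31.3 and 25.4 CPM. The tumour markers summed to 1495 and 1560 CPM in tumour-like and to 200 and 254 CPM in macrophage-like cells. The files shared 374 barcodes, and of the 327 shared among kept cells 17.1% fell in the same class in both libraries, against 17.4% from the mix of classes alone.

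The 6 ligand genes lie on chromosome 11 and both receptor genes on chromosome 9. In the genome build GRCm38, Ccl2 (82035571 to 82037453), Ccl7 (82045712 to 82047525), Ccl12 (82101845 to 82103400) and Ccl8 (82115185 to 82116799) follow one another on the forward strand within 81229 bases. Ccl3 (83647844 to 83649355, reverse strand) and Ccl4 (83662584 to 83664683, forward strand) lie farther along. Ccr1 (chromosome 9, 123962124 to 123968692, reverse strand) and Ccr2 (124101950 to 124113557, forward strand) lie within 151434 bases. UMIs were counted per gene, so these are whole-gene bounds. Promoter sequences of 5 of the 8 genes were found in RefSeq tables for GRCm38.p6. The 150 bases before the start of 3 ligand genes are shown because Ccl12 and Ccl8 are neighbours that shared macrophage-like cells as a source, whereas Ccl3 had its highest level in neutrophil-like cells. Capitals mark TATAAA, the TATA box, and GAGGAA, the core of the site of PU.1, a myeloid transcription factor, each searched on both strands. The windows are chr11:82101695-82101844 (forward), chr11:82115035-82115184 (forward) and chr11:83649379-83649528 (reverse), in that order.
Ccl12: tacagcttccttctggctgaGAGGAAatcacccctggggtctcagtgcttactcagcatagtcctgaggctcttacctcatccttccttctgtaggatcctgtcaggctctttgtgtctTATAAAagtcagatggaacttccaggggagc
Ccl8: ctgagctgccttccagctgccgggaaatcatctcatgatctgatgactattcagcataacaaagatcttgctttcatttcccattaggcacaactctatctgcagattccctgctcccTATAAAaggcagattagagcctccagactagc
Ccl3: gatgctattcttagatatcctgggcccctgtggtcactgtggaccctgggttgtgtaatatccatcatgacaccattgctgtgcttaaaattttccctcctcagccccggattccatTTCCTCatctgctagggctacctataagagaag
TATAAA began 31 bases before the start in Ccl12 and 32 in Ccl8, and 7.57% of 32851 promoter windows of 150 bases hold it. GAGGAA stood 130 bases before the start in Ccl12 and, on the other strand, 33 bases before it in Ccl3, and 14.5% of windows hold it. Without gaps, the Ccl12 and Ccl8 windows had the same base at 58 of 150 positions, against 42 for Ccl12 and Ccl3 and 32 for Ccl8 and Ccl3. These matches are letters in a window and were not tested for binding.

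**Figure D1:**
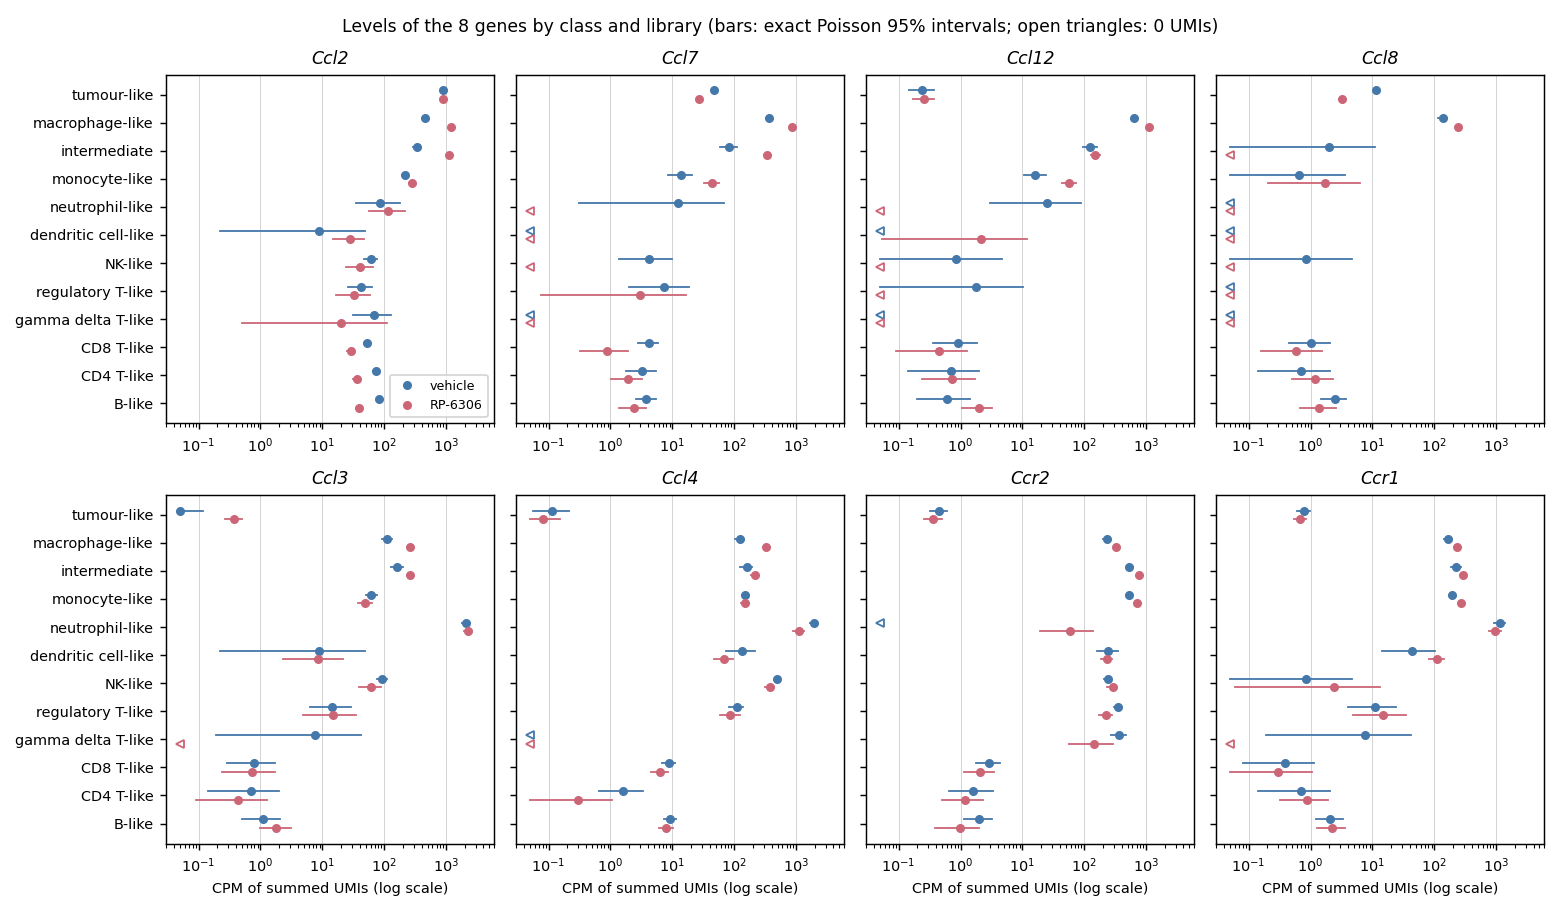
Level of each gene (CPM of summed UMIs, log axis) in 12 named classes of the vehicle (blue) and RP-6306 (red) libraries, with exact Poisson 95% intervals; open triangles mark 0 UMIs. Ccl2 was high in tumour-like cells of both libraries (903 and 893 CPM), Ccl12 was below 1 CPM there, and Ccl3 was highest in neutrophil-like cells (2109 and 2282 CPM).

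Ccl2, the main ligand of CCR2, was the member that tumour-like cells carried at a high level, and this level was nearly the same in both libraries. It was 903 CPM (exact Poisson 95% interval 896 to 909, 78586 UMIs) in vehicle and 893 CPM (887 to 898, 100423 UMIs) in RP-6306, a log2 ratio of -0.02 on CPM + 1, which lay between -0.09 and 0.08 over the alternatives and so had no settled sign. It was detected in 94.2% of vehicle and 91.3% of RP-6306 tumour-like cells, and in 62.9% and 60.3% when each cell was thinned to 2000 UMIs. Tumour-like cells held 94.8% of all Ccl2 UMIs in vehicle and 93.7% in RP-6306. Within the cell-cycle-led clusters 15 and 18 the log2 ratio was -0.02 in each, and within cluster 16, led by Cryab and Cebpd among others, it was 0.16 (interval 0.14 to 0.18). In cluster 17, led by interferon-induced genes and of 12 and 8 cells, it was 1.09 (0.88 to 1.30), with 62.9% of the RP-6306 UMIs in 1 cell.

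In macrophage-like cells Ccl2 was at 460 CPM (420 to 502) in vehicle and 1178 CPM (1134 to 1223) in RP-6306, a log2 ratio of 1.36 (1.22 to 1.5). The order of the classes differed: in vehicle tumour-like cells stood above macrophage-like cells, and in RP-6306 macrophage-like (1178 CPM) and intermediate cells (1109 CPM), whose intervals overlapped, stood above tumour-like cells. Monocyte-like cells were at 215 CPM (192 to 239) and 282 CPM (253 to 314). Lymphocyte classes had a low Ccl2 level in both libraries, with 81.9 and 39.5 CPM in B-like cells, which are not a known source, and UMIs in 16.6% and 7.83% of those cells (13.7% and 6.78% at 2000 UMIs). B-like cells held 1.73 (1.53 to 1.97) and 1.5 (1.24 to 1.81) Ccl2 UMIs per UMI of the tumour keratin Krt8, near the 1.97 and 1.82 of tumour-like cells, and their level is taken here as the background. Macrophage and monocyte-like cells held 19.8 (14.9 to 26.7) and 87.8 (66.3 to 119) Ccl2 UMIs per Krt8 UMI. This ratio was 62.9 (31.7 to 146) and 114 (76.6 to 179) in macrophage-like cells. In monocyte-like cells it was 9.49 (6.68 to 13.9) and 27.5 (15.5 to 53.8). The part of the background in the Ccl2 levels of these classes was not tested.

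In B-like, CD4 T-like and CD8 T-like cells the Ccl2 level was lower in the RP-6306 library than in vehicle. CD4 T-like cells held 1.84 (1.52 to 2.23) and 1.54 (1.26 to 1.89) Ccl2 UMIs per Krt8 UMI. CD8 T-like cells held 1.41 (1.2 to 1.64) and 1.38 (1.1 to 1.72), below tumour-like cells in both libraries. The origin of the Ccl2 UMIs of lymphocytes was not tested. Ccl2 was the 1 of 7 measured members 2-fold or more lower in B-like cells, and 0 were higher, where 2.22% and 0.327% of all genes were. In CD4 T-like cells 0 of 2 measured members passed 2-fold, with Ccl2 just short of it (72.8 and 36.0 CPM), where 1.87% of all genes were lower and 0.525% higher. In CD8 T-like cells 1 of 4 measured members, Ccl7, was 2-fold or more lower (32 and 6 UMIs, 4.14 and 0.887 CPM) and 0 were higher, where 1.58% and 0.243% of all genes were.

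Ccl7, a second ligand of CCR2, differed in opposite directions in tumour-like and macrophage-like cells. In tumour-like cells it was at 47.3 CPM (45.9 to 48.8) in vehicle and 26.9 CPM (26.0 to 27.9) in RP-6306, a log2 ratio of -0.79 (interval without the added 1 CPM, -0.88 to -0.75). It was lower in RP-6306 in each of clusters 15, 16 and 18, with log2 ratios of -1.54, -0.46 and -0.58. It was higher (1.78) in the small cluster 17, which had 87.5% of its RP-6306 Ccl7 UMIs in 1 cell. In macrophage-like cells it was at 362 CPM (327 to 399) and 859 CPM (822 to 897), a log2 ratio of 1.24 (1.09 to 1.41), and of 0.71 with the clusters of the class weighted alike in both libraries. The sources of the Ccl7 UMIs differed too, between libraries in which the macrophage-like class also differed in size (108 and 180 cells, 1094320 and 2327677 UMIs of all genes). Tumour-like cells held 86.6% (85.6 to 87.5, exact Clopper-Pearson interval) in vehicle and 53.7% (52.4 to 55.0) in RP-6306, and macrophage-like cells 8.33% and 35.5%.

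Ccl8, which in the mouse acts mainly through CCR8, was lower in tumour-like cells after RP-6306. Its level in macrophage-like cells was higher, but nearly alike in both libraries once their clusters were weighted alike. In tumour-like cells it was at 11.3 CPM (10.6 to 12, 982 UMIs) and 3.24 CPM (2.91 to 3.59, 364 UMIs), 3.49-fold lower in RP-6306, or a log2 ratio of -1.54 on CPM + 1. It was found in 14.8% of vehicle and 5.93% of RP-6306 tumour-like cells, whose median depths were 26269 and 31188 UMIs, beside 0.543% and 0.289% of B-like cells with medians of 2168 and 1933 UMIs. At 2000 UMIs per cell it was found in 2.39% and 0.470% of tumour-like cells, against 0.603% and 0.512% of B-like cells. The thinned RP-6306 share was thus near that of B-like cells. By level, B-like cells were at 2.44 CPM (1.49 to 3.77) and 1.39 CPM (0.669 to 2.57), below tumour-like cells in both libraries. Ccl8 was lower in RP-6306 in clusters 15, 16 and 18, at log2 ratios of -1.90, -1.32 and -1.35, and cluster 17 had 1 and 9 UMIs. In macrophage-like cells Ccl8 was at 136 CPM (115 to 160, 149 UMIs) and 243 CPM (224 to 264, 566 UMIs), a log2 ratio of 0.83 (0.57 to 1.11), with 32.9% and 17.3% of these UMIs in the single highest cell. With the clusters of the class weighted alike in both libraries it was at 195 and 218 CPM, a log2 ratio of 0.16, and of 4 macrophage-like clusters 1 had an interval above 0 and 1 an interval below 0. Macrophage-like cells held 12.4% of the Ccl8 UMIs of the vehicle and 58.4% of the RP-6306 library.

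Ccl12, a CCR2 ligand of rodents, was in these libraries a transcript of macrophage-like cells. It was at 625 CPM (579 to 674) in vehicle and 1115 CPM (1073 to 1159) in RP-6306 macrophage-like cells (log2 ratio 0.83, and 0.39 with clusters weighted alike), and at 0.241 CPM (0.149 to 0.369) and 0.258 CPM (0.173 to 0.370) in tumour-like cells. Macrophage and monocyte-like cells held 93.1% and 96.5% of its UMIs. In tumour-like cells the 12 macrophage markers summed to 31.3 and 25.4 CPM, and the 8 fibroblast markers to 258 and 230 CPM. The part of fibroblast-marked cells in the Ccl7 and Ccl8 levels of tumour-like cells was not tested.

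Across the members, 1 of the 7 with at least 20 UMIs in tumour-like cells was 2-fold or more lower in RP-6306 (Ccl8), and 0 were 2-fold or more higher. Among all 17467 genes measured in these cells, 0.218% were that much lower and 0.0515% that much higher. Ccl4 had fewer than 20 UMIs, and Ccl3, Ccr2 and Ccr1, like Ccl12 and Ccl4, were below 1 CPM in tumour-like cells of both libraries. At such levels a ratio on CPM + 1 cannot reach 2-fold, so the count could only have been made by Ccl2, Ccl7 and Ccl8. Of the 42 Ccl3 UMIs of RP-6306 tumour-like cells, 78.6% came from 1 cell. With a pseudocount of 10 CPM in place of 1, the log2 ratio of Ccl8 was -0.69 and no member passed 2-fold.

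**Figure D2:**
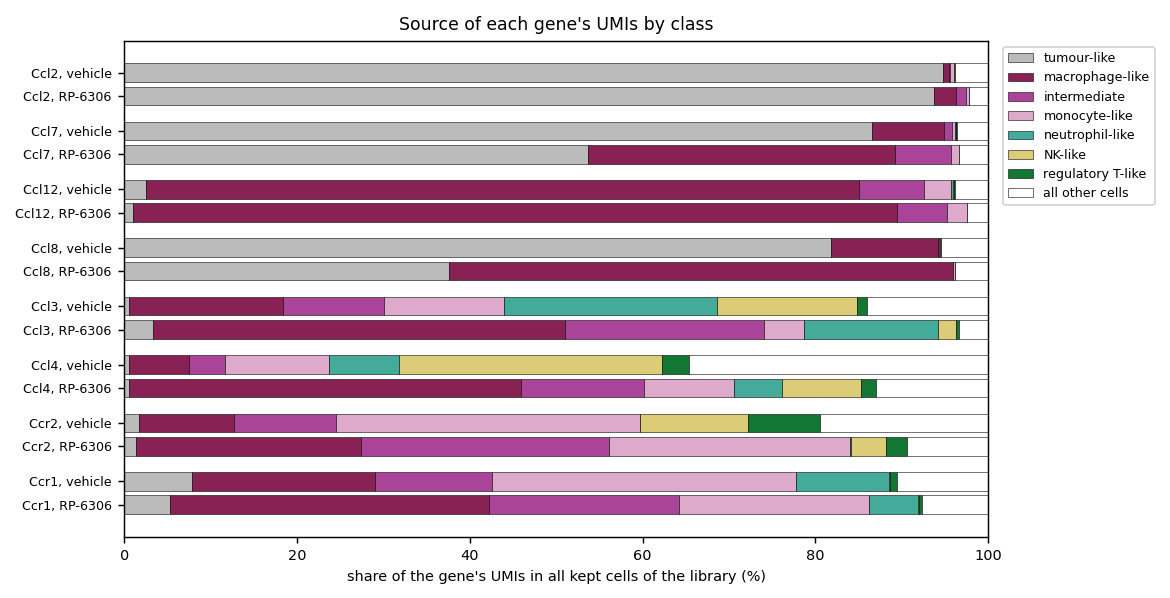
Share of each gene's UMIs (horizontal axis, percent of the UMIs in all kept cells of a library) held by tumour-like, macrophage-like, intermediate, monocyte-like, neutrophil-like, NK-like, regulatory T-like and all other cells, 1 bar per gene and library. Tumour-like cells held 94.8% and 93.7% of Ccl2, 86.6% and 53.7% of Ccl7 and 81.8% and 37.6% of Ccl8 UMIs in vehicle and RP-6306.

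After RP-6306, the joint class of macrophage and monocyte-like cells had higher levels of the ligands than after vehicle. Ccl2 was at 320 CPM (301 to 341) and 934 CPM (906 to 962), with a log2 ratio of 1.54 (1.45 to 1.65). Ccl7 was at 145 CPM (132 to 159) and 525 CPM (505 to 547), with a ratio of 1.85 (1.71 to 2.0). Ccl12 was at 245 and 615 CPM (1.32), Ccl8 at 48.0 and 123 CPM (1.34) and Ccl3 at 95.3 and 205 CPM (1.10). Ccl4 was at 143 and 255 CPM (0.84), below 2-fold. Thus 5 of the 8 members were 2-fold or more higher and 0 were 2-fold or more lower, where 2.71% and 1.6% of all 10468 measured genes were. The median log2 ratio of the 8 members was 1.21, beside 0.10 over all measured genes. These UMIs lay in few cells. The 10% of cells with most UMIs of a gene held 77.3% of the Ccl2 UMIs of the class in vehicle and 66.5% in RP-6306. For Ccl7 these shares were 99.3% and 82.6%, for Ccl12 98.3% and 86.9%, and for Ccl8 100% in both libraries. The intervals cover the counting of UMIs and not this spread between cells.

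The 2 libraries also differed in the mix of clusters within this class. Cluster M9, led by Ccl12, Mrc1 and C1q genes, made up 3.73% (2.23 to 5.84, 18 cells) of vehicle and 13.4% (10.6 to 16.8, 66 cells) of RP-6306 macrophage and monocyte-like cells, and by UMIs 9.26% and 25.6%. It held 60.3% and 54.1% of the Ccl7 UMIs, 56.0% and 63.2% of the Ccl12 UMIs, and 76.8% and 87.1% of the Ccl8 UMIs of these cells. When the clusters were weighted alike in both libraries, an alternative added after seeing the data, 1 member (Ccl2, log2 ratio 1.04) was 2-fold or more higher in place of 5. Ccl7 was then at 0.86, Ccl12 at 0.40, Ccl8 at 0.15, Ccl3 at 0.63, Ccl4 at 0.65, Ccr2 at 0.54 and Ccr1 at 0.47. This weighting raises the weight of the 18 vehicle cells of M9. Clusters were formed from both libraries together, so a changed state of cells and a changed mix of clusters cannot be told apart.

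**Figure D3:**
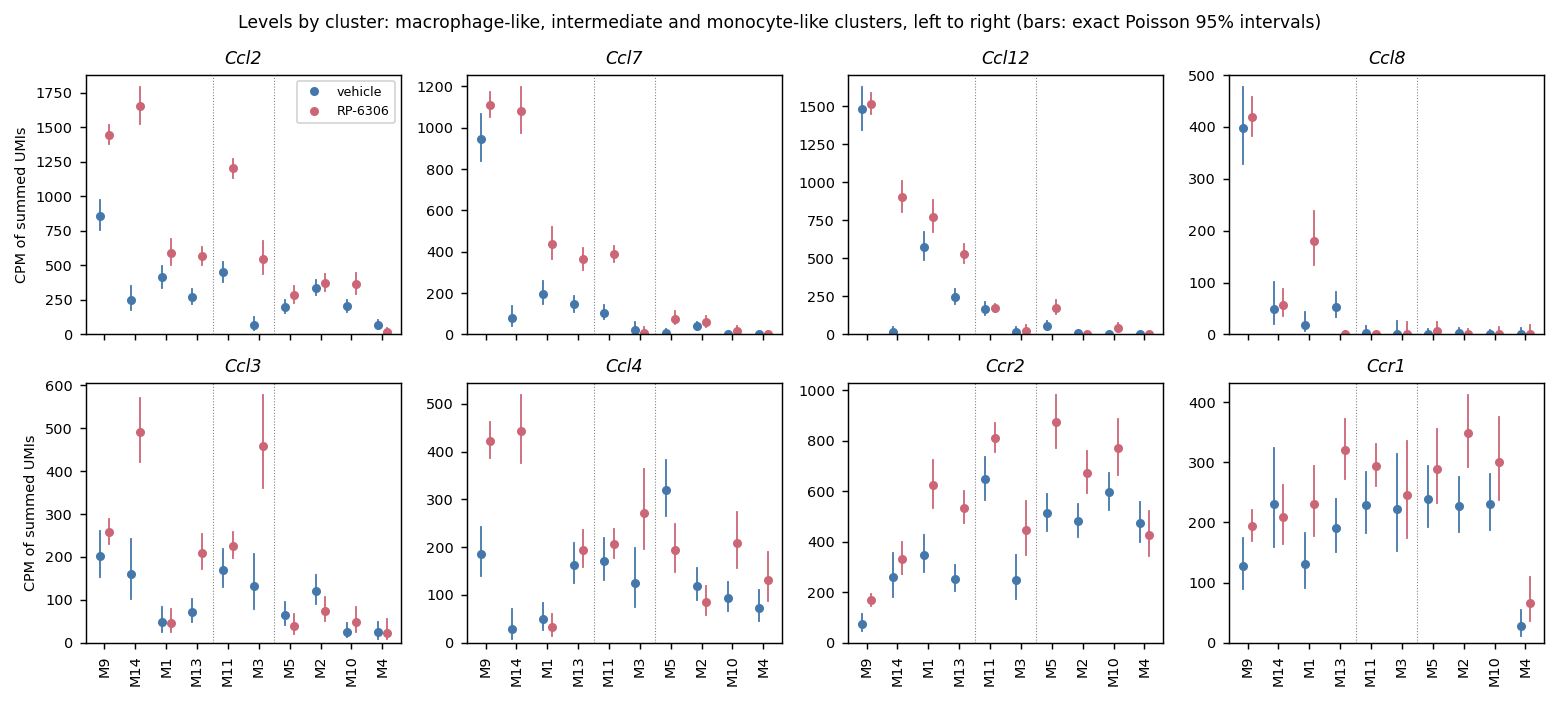
Level of each gene (CPM of summed UMIs) by cluster and library, with exact Poisson 95% intervals; the dotted lines separate macrophage-like (M9, M14, M1, M13), intermediate (M11, M3) and monocyte-like clusters (M5, M2, M10, M4). Ccl12 and Ccl8 in M9 were alike in both libraries (1482 and 1517 CPM, and 398 and 420 CPM), whereas Ccl2 was higher in RP-6306 in M9 (857 and 1445 CPM).

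Within single clusters the ligands differed from one another. Ccl2 was higher in RP-6306 in 9 of 10 clusters, with intervals above 0 in 8, and lower in the monocyte-like cluster M4 (68.6 and 18.7 CPM, 20 and 4 UMIs). Ccl7 was higher in all 7 of the 10 clusters in which it had at least 20 UMIs over both libraries, with intervals above 0 in 6. Ccl12 was higher in all 6 so measured, with intervals above 0 in 4, and Ccl8 in 3 of 4, with 1 above 0 and 1 below. A cluster could enter these counts through its RP-6306 UMIs alone, as M14 did for Ccl12. The counts of clusters with a higher level are thus partly set by this filter. Ccl3 was higher in 6 of 9 clusters and lower in 3, and Ccl4 higher in 7 of 10 and lower in 3, with 3 and 4 intervals above 0 and 1 below for each. In M9 the log2 ratio of Ccl7 was 0.23 (0.04 to 0.42), while those of Ccl12 (0.03, -0.12 to 0.19) and Ccl8 (0.08, -0.22 to 0.38) had intervals that included 0. Ccl2 was at 0.75 (0.56 to 0.95) and Ccl4 at 1.19 there. In M14, a cluster of 16 and 28 cells, Ccl12 went from 2 to 316 UMIs and Ccl7 from 11 to 379, but 43.0% of the RP-6306 Ccl12 UMIs and 90.9% of the vehicle Ccl7 UMIs came from 1 cell. Ccl8 was at 18.8 and 181 CPM in M1, with 86.3% of the RP-6306 UMIs in 1 cell, and at 21 and 0 UMIs in M13.

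As a class, macrophage-like cells had 4 of the 8 members 2-fold or more higher in RP-6306 (Ccl2, Ccl7, Ccl3 and Ccl4) and 0 lower, where 4.25% and 1.83% of 9240 genes were. Most vehicle cells of the class lay in M1 (41 cells) and M13 (33), and most RP-6306 cells in M9 (66) and M1 (45). With the clusters weighted alike Ccl2 was at 1.02 and Ccl4 at 1.16, and Ccl7 (0.71) and Ccl3 (0.83) were below 2-fold. The macrophage markers were also higher in the RP-6306 class (5749 and 8729 CPM) and its cells deeper (medians of 9532 and 12332 UMIs). The part of either in the ligand levels was not tested. In thinned cells of 2000 UMIs, Ccl2 was found in 34.0% and 55.4% of macrophage-like cells, beside 13.7% and 6.78% of B-like cells. The share was thus higher in RP-6306 in macrophage-like cells and lower in B-like cells. The log2 ratio of Ccl4 ranged from 0.57 to 1.5 over the ways of clustering and counting, and was below 1 with the members used in clustering (0.57), at the lower clustering resolution (0.65), with classes from single-cell marker scores (0.79), with each library clustered alone (0.89) and without doublet removal (0.96).

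Monocyte-like cells had lower ligand levels than macrophage-like cells in both libraries, except for Ccl4 in vehicle (151 CPM, 133 to 172, against 123 CPM, 103 to 146). Of the 7 members measured there, 2 were 2-fold or more higher in RP-6306 (Ccl7 and Ccl12) and 0 lower, where 1.85% and 1.69% of 8150 genes were. Both rested on few UMIs: Ccl7 went from 21 to 51 UMIs (13.6 and 43.6 CPM) with 52.4% and 25.5% in 1 cell, and Ccl12 from 25 to 67 UMIs (16.2 and 57.3 CPM) with 36.0% and 38.8% in 1 cell. With the members used in clustering, the ratio of Ccl12 was -0.68 and that of Ccl7 0.63, and with classes from single-cell marker scores Ccl12 was at 0.10. Ccl2 had a log2 ratio of 0.39 (0.17 to 0.62). Over the alternatives this ratio ranged from 0.02, with each library clustered alone, to 0.87, with the B-like level subtracted. The intervals of Ccl3 (-0.32, -0.82 to 0.16) and Ccl4 (-0.02, -0.31 to 0.27) included 0. Intermediate cells were below macrophage-like cells in Ccl2 in vehicle (341 CPM, 292 to 396) and overlapped them in RP-6306 (1109 CPM, ratio 1.70), and stood between the classes in Ccl7 (80.8 and 333 CPM) and Ccl12 (124 and 151 CPM). In them 2 of 7 measured members, Ccl2 and Ccl7, were 2-fold or more higher and 0 lower, where 5.89% and 2.07% of 7042 genes were.

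**Figure D4:**
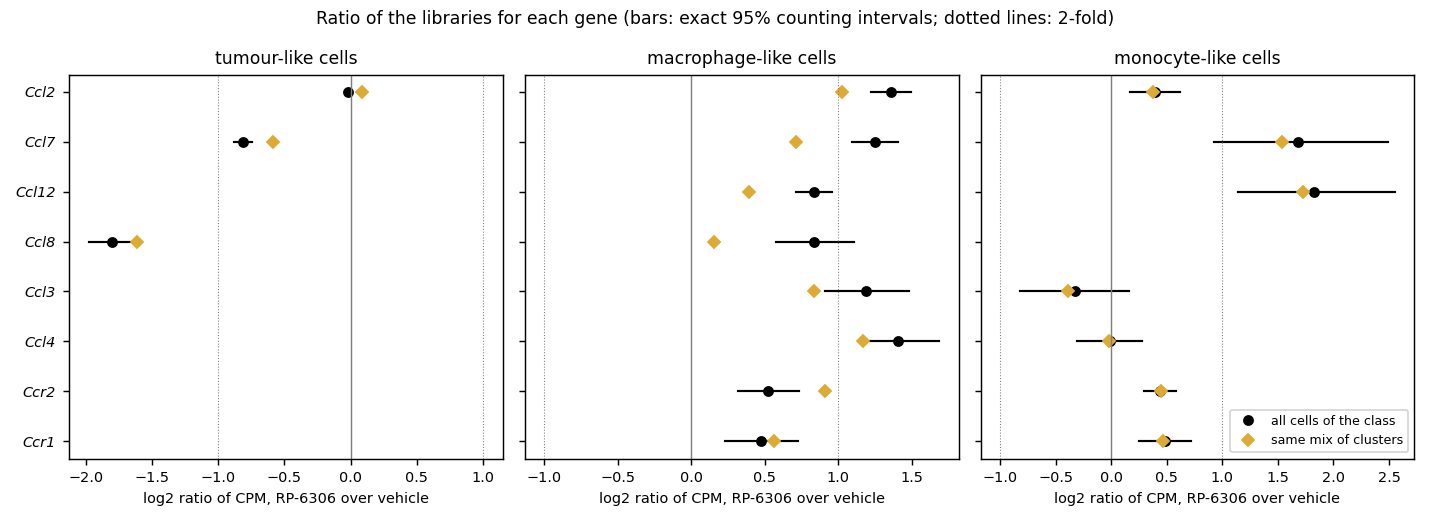
Log2 ratio of CPM, RP-6306 over vehicle and without a pseudocount, for genes with 3 CPM or more in at least 1 library, in tumour-like, macrophage-like and monocyte-like cells; black points and bars are all cells with exact 95% counting intervals, yellow diamonds the value with clusters weighted alike, and dotted lines 2-fold. Ccl7 and Ccl8 lie left of 0 in tumour-like and right of 0 in macrophage-like cells, and in the latter the diamond of Ccl8 lies near 0.

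Ccl3 and Ccl4, which also draw T and NK cells, had other sources. Neutrophil-like cells (48 and 42 cells, too few for a comparison of libraries) had the highest level of Ccl3, at 2109 CPM (1803 to 2450, 170 UMIs) and 2282 CPM (1973 to 2626, 195 UMIs). They also had the highest level of Ccl4, at 1935 CPM (1643 to 2263) and 1100 CPM (889 to 1346). NK-like cells (408 and 147), innate killer lymphocytes, came second for Ccl4 in both libraries, at 493 CPM (454 to 534) and 373 CPM (316 to 436), a log2 ratio of -0.40 (-0.67 to -0.14). In RP-6306 their interval overlapped that of macrophage-like cells (328 CPM, 305 to 352). Ccl3 in NK-like cells was at 93.5 CPM (77.0 to 113) and 60.5 CPM (39.2 to 89.3). In these cells 0 of the 4 measured members (Ccl2, Ccl3, Ccl4 and Ccr2) were 2-fold or more higher or lower, where 2.18% and 3.02% of 7389 genes were.

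The makeup of the Ccl4 and Ccl3 signal also differed between libraries, in which the numbers of NK-like cells (408 and 147) and macrophage-like cells (108 and 180) differed too. NK-like cells held 30.5% (28.5 to 32.6) of the Ccl4 UMIs in vehicle and 9.16% (7.82 to 10.6) in RP-6306, and macrophage and monocyte-like cells 23.2% (21.4 to 25.2) and 70.0% (67.8 to 72.2). For Ccl3, macrophage and monocyte-like cells held 43.4% (39.7 to 47.2) and 75.3% (72.8 to 77.7), neutrophil-like cells 24.6% and 15.6%, and NK-like cells 16.2% and 2.0%. Unnamed cells held 26.1% of vehicle and 5.06% of RP-6306 Ccl4 UMIs.

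Ccr2, the receptor of CCL2, CCL7 and CCL12, was highest in intermediate and monocyte-like cells, whose intervals overlapped in each library. Monocyte-like cells were at 520 CPM (484 to 557) and 703 CPM (656 to 753), and intermediate cells at 534 CPM (472 to 602) and 759 CPM (709 to 812). Macrophage-like cells were lower, at 229 CPM (202 to 260) and 330 CPM (307 to 354), and within them M9 was lowest, at 75.5 and 169 CPM. The log2 ratio was 0.44 (0.29 to 0.58) in monocyte-like, 0.51 (0.31 to 0.71) in intermediate and 0.52 (0.32 to 0.73) in macrophage-like cells. The intervals lay above 0 and below 2-fold in all 3. Of all measured genes, 57.1%, 62.5% and 67.6% had a ratio above 0 in these classes. Over the alternatives the macrophage-like ratio ranged from 0.22 (classes from single-cell marker scores) to 0.91 (clusters weighted alike). Ccr2 was higher in RP-6306 in 9 of the 10 clusters, with intervals above 0 in 8.

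Lymphocytes carried Ccr2 too. NK-like cells were at 238 CPM (211 to 267) and 286 CPM (236 to 342), with UMIs in 40.4% and 42.2% of cells, beside 0.457% and 0.202% of B-like cells, at median depths of 2736 and 2686 UMIs against 2168 and 1933. Cells of the regulatory T-like class, marked by Foxp3, were at 344 CPM (297 to 397) and 221 CPM (173 to 277), a log2 ratio of -0.64 (-1.05 to -0.25). In this class 0 of the 3 measured members were 2-fold or more different, where 3.56% of all genes were that much higher and 4.27% lower. All 190 vehicle and 72 of the 74 RP-6306 Ccr2 UMIs of the class lay in cluster T7 (163 and 40 cells), where the level was 378 and 458 CPM and the log2 ratio 0.28 (-0.13 to 0.68), while cluster T5 (25 and 87 cells) was at 0 and 11.2 CPM. Gamma delta T-like cells (44 and 18) were at 360 CPM (265 to 477) and 142 CPM (57.0 to 292), and dendritic cell-like cells (15 and 40) at 239 and 229 CPM. CD8 T-like, CD4 T-like and tumour-like cells were below 3 CPM in both libraries. Macrophage and monocyte-like cells held 58.0% (56.0 to 60.1) of the Ccr2 UMIs in vehicle and 82.6% (81.2 to 83.9) in RP-6306.

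Ccr1, a receptor of CCL3 and CCL7, was highest in neutrophil-like cells, at 1141 CPM (920 to 1399) and 960 CPM (763 to 1191). Intermediate, monocyte-like and macrophage-like cells followed, at 227, 193 and 164 CPM in vehicle and 286, 270 and 229 CPM in RP-6306, and neighbours in this order had overlapping intervals. The log2 ratio was 0.34 (0.03 to 0.66) in intermediate, 0.48 (0.25 to 0.72) in monocyte-like and 0.47 (0.23 to 0.73) in macrophage-like cells. Over the alternatives the monocyte-like ratio ranged from 0.06, with each library clustered alone, to 0.51. The macrophage-like ratio ranged from 0.29 to 0.74. Among monocyte-like clusters M4, led by Adgre4, Ace and Ear2 among others, was low in Ccr1 (27.4 and 65.6 CPM) and not in Ccr2 (473 and 426 CPM). NK-like cells, which carried Ccr2, were at 0.835 and 2.42 CPM of Ccr1, with 1 UMI in each library.

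In single macrophage-like cells some pairs of the ligands were often found together. Among cells with a Ccl7 UMI, 91.4% (76.9 to 98.2) of vehicle and 97.9% (92.6 to 99.7) of RP-6306 cells also had Ccl2, against 37.0% and 43.5% of cells without Ccl7. Among cells with a Ccl8 UMI (14 and 34), 71.4% and 97.1% had Ccl12, against 33.0% and 40.4% of those without Ccl8. Ccl4 was found in 65.7% and 66.2% of Ccl3-positive and in 13.7% and 17.0% of Ccl3-negative cells. Cells with a ligand UMI were deeper, with medians of 11306 and 14175 UMIs for Ccl7-positive cells and 8749 and 9316 for the others, and the part of depth was not tested. At least 3 of the 6 ligands were found in 35.2% of vehicle and 52.8% of RP-6306 macrophage-like cells, against 3.70% and 5.46% of monocyte-like and 8.08% and 2.60% of tumour-like cells. UMIs of both Ccl2 and Ccr2 were found in 29.6% of vehicle and 40.6% of RP-6306 macrophage-like cells and in 29.0% and 26.2% of monocyte-like cells. In NK-like cells, which carry Ccr2 and whose Ccl2 was near the B-like level, these shares were 6.86% and 5.44%. These 3 classes differed in depth. Median UMIs were 9532 and 12332 in macrophage-like, 5069 and 6165 in monocyte-like and 2736 and 2686 in NK-like cells. The part of depth and of the Ccl2 background in these shares was not tested. The 10% of tumour-like cells with most Ccl2 held 38.7% and 39.8% of its UMIs in the class.

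The genes most alike in pattern to each member were ranked by Pearson r of log2(CPM + 1) over 24 points, the 12 named classes in each library, among 6844 genes. The points share libraries and depths, and r is given as a description. Ccl12 was most like the complement genes C1qc (0.95) and C1qb (0.92) and Trem2 (0.93), a lipid receptor of macrophages. Ccl8 was most like Folr2 (0.89), a folate receptor of tissue macrophages, Gas6 (0.86) and Ms4a7 (0.83). C1qc, C1qb, Trem2 and Ms4a7 were among the markers that named the macrophage-like class. Their match to genes high in that class was partly set by this naming. Ccl2 was most like Ctsl (0.94), Mertk (0.90) and Aprt (0.88), and Ccl7 most like Mmp13 (0.89), Ppbp (0.86) and Fmn1 (0.86). Among the members themselves, Ccl7 stood near Ccl2 and Ccl12 (both 0.87), and Ccl3 near Ccl4 (0.90) and Ccr1 (0.85). Ccl3 was most like Sdcbp (0.89), Nos1ap (0.88) and Cpeb2 (0.88), and Ccl4 like Gsap (0.92), Entpd1 (0.92) and Lrmda (0.89). Ccr2 was most like Atp2b4 (0.91), Dok2 (0.89) and Cyth4 (0.85), and Ccr1 like Lst1 (0.97), Mcemp1 (0.96) and Cass4 (0.96). Ccr2 and Ccr1 had an r of 0.48 with each other.

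Other genes of the pathway were read from lists. Of 10 other CC chemokines measured in tumour-like cells, 0 were 2-fold or more higher or lower, where 0.0515% and 0.218% of all genes were. Their median log2 ratio was 0.07 beside 0.01 over all genes. In macrophage-like cells 1 of 6 was higher and 2 were lower, with a median of 0.00 beside 0.17, where 4.25% and 1.83% of all genes were. In these small lists 1 gene is a larger share than that background, and nothing particular to a list is read from its count. Ccl17, a ligand of CCR4, was at 45.7 and 98.0 CPM (1.08, 0.65 to 1.57). Ccl5, which attracts T cells, was at 82.2 and 6.01 CPM (-3.57, -4.70 to -2.95), and Ccl24, an eosinophil attractant and a leading gene of clusters M1 and M13, at 795 and 189 CPM (-2.06, -2.24 to -1.90). Some lymphocyte marker sets were lower in RP-6306 macrophage-like cells, and others were nearly level or higher. The 9 NK markers summed to 81.3 and 31.8 CPM there (9 and 6 detected, with Ncr1, Eomes and Klra8 at 0 in RP-6306). The 4 regulatory T markers summed to 66.7 and 15 CPM (4 and 3 detected, with Foxp3 at 0). The 8 T cell markers summed to 111 and 103 CPM and the CD8 T markers to 15.5 and 16.3 CPM. The CD4 T markers summed to 5.48 and 10.7 CPM and the B markers to 66.7 and 77.3 CPM. In monocyte-like cells the NK markers summed to 23.3 and 3.42 CPM (8 and 3 detected). The part of lymphocytes in the Ccl5 levels was not tested. In monocyte-like cells 1 of 5, Ccl5, was lower (31.7 and 7.70 CPM), where 1.69% of all genes were, and Ccl24 (160 and 94.9 CPM), Ccl6 (688 and 790 CPM) and Ccl9 (275 and 294 CPM) were below 2-fold.

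In tumour-like, macrophage-like and monocyte-like cells, at most 4.25% of all genes were 2-fold or more higher and at most 1.83% lower. Both shares are those of macrophage-like cells. Of the other CC receptors and decoys, 0 of 9 in tumour-like, 0 of 3 in macrophage-like and 0 of 2 in monocyte-like cells were 2-fold or more different. The decoy receptor Ccrl2 was at 167 and 134 CPM in macrophage-like and at 158 and 129 CPM in monocyte-like cells. Of the other genes of monocyte recruitment and survival, 0 of 13 in tumour-like, 0 of 14 in macrophage-like and 0 of 12 in monocyte-like cells were 2-fold or more different. In the joint class of macrophage and monocyte-like cells 2 of 14 were higher and 0 lower, where 2.71% and 1.6% of all genes were. In intermediate cells 1 of 12 was higher and 2 were lower, where 5.89% and 2.07% of all genes were. Csf1, the macrophage growth factor, was at 110 and 103 CPM and the adhesion molecule Vcam1 at 91.1 and 79.4 CPM in tumour-like cells. In macrophage-like cells C5ar1, the C5a receptor, was at 128 and 211 CPM (0.72), Vcam1 at 78.6 and 124 CPM and Csf2ra at 66.7 and 94.1 CPM. In monocyte-like cells Csf2ra was at 110 and 149 CPM and Icam1 at 51.7 and 68.4 CPM.

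The NF-kB and AP-1 list holds 20 genes of the inflammatory response, among them factors that induce chemokines, their feedback inhibitors Nfkbia and Tnfaip3, and Atf3, which often represses. Of these, 1 was 2-fold or more lower in tumour-like cells, where 0.218% of all genes were, with a median of -0.04 beside 0.01. This was Fosb (505 and 236 CPM, -1.09), and Fos (1169 and 605 CPM, -0.95) and Atf3 (290 and 180 CPM, -0.69) came next. In macrophage-like cells 1 of 20 was higher, Il6 (14.6 and 40.8 CPM, 1.42), a low gene named after its value was seen, with a median of 0.17. Over all genes 4.25% were higher and the median was 0.17 too, so the list stood at the background. Fos was at 886 and 1429 CPM (0.69, 0.59 to 0.79) there, opposite to tumour-like cells, Jun at 150 and 204 CPM and Atf3 at 279 and 166 CPM (-0.75). In monocyte-like cells Il6 was again the 1 gene past 2-fold (12.3 and 36.8 CPM), where 1.85% of all genes were higher, and Il1a was at 36.8 and 56.4 CPM, Atf3 at 330 and 240 CPM and Junb at 648 and 813 CPM. Of 14 genes of chemokine receptor signalling, 0 were 2-fold or more different in any of the 3 classes, with medians of -0.04, 0.05 and -0.00. Of all genes, at most 4.25% were that much higher and at most 1.83% lower in these classes. Grk6, a receptor kinase, was at 38.4 and 50.5 CPM, Stat3 at 205 and 172 CPM and Gnai3, a G protein subunit, at 214 and 232 CPM in tumour-like cells. Rgs1 and Rgs2, which shorten G protein signals, were at 404 and 279 CPM and at 195 and 155 CPM in macrophage-like cells, and Jak2 at 101 and 71.3 CPM. In monocyte-like cells Pik3cg was at 71.1 and 52.2 CPM, Arrb2, an arrestin, at 148 and 192 CPM and the receptor kinase Grk2 at 89.9 and 73.6 CPM.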

How the data were processed

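Droplet single-cell libraries (SeekOne DD kit, per the labels' protocols) were measured for 1 vehicle and 1 RP-6306 sample. The deposited matrices hold UMI counts, whole numbers that were not normalized. Cell Ranger 2.1.1 and mm10 are named in the submitters' processing notes, without their roles. The sources used here do not state how cell barcodes were chosen. Gene coordinates came from GENCODE and promoters from RefSeq tables, both for GRCm38.

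Computed for this work with scanpy 1.11.5 in Python 3.11.15 (leidenalg 0.10.2, igraph 0.11.9, scikit-learn 1.9.0, pandas 2.3.3, scipy 1.17.1, numpy 2.4.6 and, for figures, matplotlib 3.10.9): cells needed 500 UMIs, 300 genes and at most 15% mitochondrial UMIs. Scrublet made 0 automatic calls, so the top 6% of scores in each library were removed (1004 and 930 cells), and doublets may remain. Cells of both libraries were clustered together (1376 of 2000 variable genes, after leaving out the 8 genes and mitochondrial, ribosomal, antigen receptor, haemoglobin and predicted genes; 30 components, 15 neighbours, Leiden resolution 1), and T and myeloid cells again. A marker counted for a cluster at 25% of its highest cluster level and in 10% of cells. A name needed 3 markers, and these limits were set after seeing the data. For each class, the UMIs of a library were added up and expressed as CPM. A gene needed 20 UMIs over both libraries and a class 50 cells in each library. Log2 ratios used CPM + 1. Their 95% intervals are exact binomial intervals of the 2 UMI totals and leave out the added 1 CPM. Intervals of levels are Poisson and those of shares Clopper-Pearson. UMIs are counted molecules, but all intervals cover counting error only. The named genes are the 8 members, up to 3 genes per list and class with the largest ratios among those with 50 CPM and 50 UMIs in the higher library, and the 3 genes most alike to each member. The members and lists were chosen with earlier results of these data known. The ratio step was tested on simulated data. Alternatives are given in the closing section. Some genes the rule names are not reported here.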

Additional observations from a re-analysis of the deposited data

Results flagged for a closer look

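Ccl7 and Ccl8 differed between the libraries in opposite directions in different classes. The log2 ratio of Ccl7 was 1.24 in macrophage-like and 1.61 in monocyte-like cells, and -0.79 in tumour-like cells. That of Ccl8 was 0.83 in macrophage-like and -1.54 in tumour-like cells. With clusters weighted alike in both libraries, whose macrophage-like cells lay mostly in different clusters, Ccl7 was at 0.71 and Ccl8 at 0.16 in macrophage-like cells, and at -0.57 and -1.38 in tumour-like cells. With 1 library per treatment, the difference between classes was not tested.

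Some clusters that belong to no named class had levels above those of macrophage and monocyte-like cells of the same library. Cluster M6, led by Siglech, had Ccl4 at 1624 CPM in vehicle (16 cells, 116 UMIs) and 824 CPM in RP-6306 (10 cells, 41 UMIs). Cluster M8, led by S100a8 and Cxcl3 among others, had Ccl4 at 963 CPM, Ccl3 at 257 CPM and Ccr1 at 375 CPM in its 13 vehicle cells. In vehicle, Ccl2 was at 399 CPM in cluster 0 (1736 shallow cells) and at 811 CPM in the 10 cells of cluster 21.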

How the results depend on the processing

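Of 15 alternatives, 13 were planned and 2 added after seeing the data. Over 450 recomputed log2 ratios of single members, 354 stayed within their counting interval, 95 left it and 1 changed direction from a 2-fold value (Ccl12 in monocyte-like cells, -0.68 with the members used in clustering), and the cause was not tested. The 5 members 2-fold or more higher in macrophage and monocyte-like cells were 4 as a mean over cells and 1 with clusters weighted alike, by whose construction the cluster mix is removed. The 1 member lower in tumour-like cells (Ccl8) was 0 with a pseudocount of 10 CPM. The count of members higher in macrophage and monocyte-like than in tumour-like cells was 7 in vehicle and 7 or 8 in RP-6306. Median-of-ratios scaling moved macrophage-like values by -0.13. No paired analysis was possible because there was 1 library per treatment, and for the same reason none could be left out. Neutrophil-like, dendritic cell-like and gamma delta T-like values rest on few cells, and single cells held large parts of Ccl8 and of monocyte-like Ccl7 and Ccl12.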

Other observations

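Cluster 23 stayed unnamed. It held 1 vehicle and 82 RP-6306 cells, carried 5 of 9 tumour markers, and was led by Hist1h2ak, Mgl2 and the C1q genes among others. In its RP-6306 cells Ccl2 was at 883 CPM (601 UMIs), Ccl7 at 70.5 CPM (48 UMIs) and Ccl12 at 67.6 CPM (46 UMIs, 87.0% in 1 cell).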
